A study of Mus musculus with 8 samples.

Results

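*Dmbt1*, *Rbp7*, *Edn2*, *Fgfbp1*, *Lrrc31*, *Smpd3* and *Ppp2r3a* are 7 genes, of 53655 gene symbols measured, whose transcripts were lower in intestinal tuft cells with an active *Chat* reporter than in those without it. The 7 were selected on their measured counts relative to library depth, which were strongly lower in the Chat-pos than in the Chat-neg libraries. They were also selected on not being known as goblet cell markers. The lower level in Chat-pos is therefore the reason for their choice, and their values are given as a description with no test. RNA came from tuft cells of the small intestine of naïve mice, sorted by flow cytometry as CD45-negative, EPCAM-positive and Il25-RFP-positive. Chat-GFP-positive cells (Chat-pos) and Chat-GFP-negative cells (Chat-neg) gave 4 libraries each. Both groups carried the same genotype, Il25-RFP/+;Chat-GFP(Tg+), so the groups differ in reporter signal and not in alleles. Chat-GFP is a transgene, and the gate reads its fluorescence rather than the native protein. The sources used here do not give the age of the mice, the number of cells per library or which libraries shared an animal.

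Tuft cells are sparse chemosensory cells in the gut lining that sense luminal metabolites and release IL-25, and some of them make acetylcholine with choline acetyltransferase, the product of *Chat*. The 7 genes do not form a single known pathway. *Dmbt1* encodes a large secreted glycoprotein of mucosal surfaces with scavenger receptor cysteine-rich (SRCR) domains, which binds bacteria. *Edn2* encodes endothelin 2, a short peptide that contracts smooth muscle through G protein-coupled receptors and was first described in the mouse intestine as vasoactive intestinal contractor. *Fgfbp1* encodes a secreted carrier that frees fibroblast growth factors (FGFs) from heparan sulphate in the matrix. *Rbp7* encodes a small cytoplasmic retinol-binding protein. *Smpd3* encodes neutral sphingomyelinase 2, which cleaves sphingomyelin to ceramide, and *Ppp2r3a* a regulatory subunit of protein phosphatase 2A (PP2A). *Lrrc31* encodes a leucine-rich repeat protein known from human oesophageal epithelium, where interleukin-13 induces it.

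The transcript of *Chat* followed the gate. *Chat* averaged 310 ± 36.2 counts per 1000000 counts in named genes (CPM) in Chat-pos cells and 117 ± 21.3 CPM in Chat-neg cells, and *Il25* averaged 111 ± 19.1 CPM and 45.6 ± 28.0 CPM (SD, n = 4 each). All 13 tuft cell markers checked were detected and tested. Of these, 7 rose, *Chat* and *Il25* among them (edgeR adjusted p under 0.05), beside 3.62% of all tested genes called higher. *Dclk1*, *Pou2f3* and *Trpm5* did not pass (edgeR adjusted p = 0.483, 0.329 and 0.170). The summed level of the 13 markers was 24421 to 25069 CPM in Chat-pos cells and 10726 to 19137 CPM in Chat-neg cells. Depth differed between the gates, with 1757401 to 2541955 counts in named genes in Chat-pos and 87642 to 1176880 in Chat-neg. The shallowest library was Chat-neg replicate 1, where 36 reads in all fell on the 7 genes. Over all libraries the genes drew from 93 reads (*Edn2*) to 1026 reads (*Dmbt1*).

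The 7 genes lie on 6 chromosomes of GRCm38. *Rbp7* and *Edn2* share chromosome 4 at a distance of 29.3 Mb. *Dmbt1* spans 131032053 to 131121630 on the plus strand of chromosome 7, *Fgfbp1* 43978858 to 43981779 on the minus strand of chromosome 5, and *Lrrc31* 30679058 to 30699843 on the minus strand of chromosome 3. *Smpd3* spans 106252548 to 106337988 on the minus strand of chromosome 8 and *Ppp2r3a* 101105084 to 101251795 on the minus strand of chromosome 9. *Edn2* runs from 120161206 to 120167360 on the plus strand and *Rbp7* from 149449687 to 149454978 on the minus strand. RefSeq promoter windows on GRCm38.p6 were at hand for 5 of the 7 genes. The 250 bases before the start of 4 of them are printed 5′ to 3′ on the strand of the gene, because the genes were low in the same libraries and these windows allow their letters to be compared. Capitals mark motif letters found on either strand.
Edn2, chr4:120160956-120161205, plus strand: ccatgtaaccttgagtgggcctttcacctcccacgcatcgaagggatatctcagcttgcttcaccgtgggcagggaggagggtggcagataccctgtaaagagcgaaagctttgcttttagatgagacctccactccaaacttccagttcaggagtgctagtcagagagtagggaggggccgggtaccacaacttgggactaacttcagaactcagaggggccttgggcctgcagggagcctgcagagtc
Fgfbp1, chr5:43981800-43982049, minus strand: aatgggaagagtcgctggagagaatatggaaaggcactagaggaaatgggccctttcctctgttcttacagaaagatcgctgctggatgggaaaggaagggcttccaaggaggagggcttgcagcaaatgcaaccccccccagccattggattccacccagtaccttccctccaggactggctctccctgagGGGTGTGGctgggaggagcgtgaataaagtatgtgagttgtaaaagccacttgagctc
Rbp7, chr4:149454969-149455218, minus strand: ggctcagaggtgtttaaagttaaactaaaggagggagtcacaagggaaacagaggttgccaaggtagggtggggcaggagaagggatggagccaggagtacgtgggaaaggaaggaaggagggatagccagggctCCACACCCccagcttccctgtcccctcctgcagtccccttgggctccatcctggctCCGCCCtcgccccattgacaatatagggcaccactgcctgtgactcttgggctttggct
Lrrc31, chr3:30699844-30700093, minus strand: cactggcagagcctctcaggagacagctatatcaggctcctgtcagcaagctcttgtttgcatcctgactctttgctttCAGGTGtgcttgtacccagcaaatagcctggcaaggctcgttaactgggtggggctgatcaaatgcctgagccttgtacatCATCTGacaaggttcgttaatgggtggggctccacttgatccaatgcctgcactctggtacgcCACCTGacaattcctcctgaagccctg

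The letters searched on both strands were TATAAA of the TATA box, ATGCAAAT of the POU octamer, TTTATG for CDX factors, AGATAA for GATA factors, CAGNTG of the E-box, GGGCGG of the GC box, TGANTCA for AP-1 and GGGTGTGG of a KLF-type GT box. Over 32851 promoter windows of the same length, the shares holding them were 12.4%, 1.6%, 10.8%, 9.99%, 44.8%, 32.7%, 6.75% and 3.2%, in that order. *Fgfbp1* held the GT box 58 bases before its start, and *Rbp7* held it on the opposite strand, as CCACACCC, 115 bases before its start. *Rbp7* also held a GC box, as CCGCCC, 59 bases before the start. *Lrrc31* held 3 E-boxes, 171, 90 and 27 bases before the start, and *Edn2* held none of the 8 in this window. *Ppp2r3a*, whose windows are not printed, held GC boxes 66, 33 and 12 bases before its upstream start. That window also held an E-box at 71 and the CDX letters at 233 bases. Before a start further downstream, *Ppp2r3a* held the GATA letters at 81 and an E-box at 53 bases. A match of letters is a description of the window and not a binding site.

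*Dmbt1*, the best counted of the genes, had 27.9, 36.0, 26.5 and 51.9 CPM in Chat-pos replicates 1 to 4, against 183, 253, 201 and 411 CPM in Chat-neg replicates 1 to 4. The gates stood far apart, and the lowest Chat-neg library held 3.52 times the level of the highest Chat-pos library. The mean was 35.6 ± 11.7 CPM in Chat-pos cells and 262 ± 104 CPM in Chat-neg cells (SD, n = 4 each). On the log2 scale the difference was -2.81 ± 0.26 (SE, edgeR). Per kb of exon, *Dmbt1* averaged 5.04 CPM in Chat-pos cells, a level above that of 44.7% of the tested genes, and 37.1 CPM in Chat-neg cells, a level above that of 87.0%. Leaving out any 1 library kept the log2 difference between -3.05 and -2.49. In this bulk RNA, fewer cells that make a transcript and less of it per cell cannot be told apart.

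*Edn2*, the ligand among the genes, had 1.14, 5.45, 5.48 and 5.51 CPM in Chat-pos replicates 1 to 4, against 22.8, 7.65, 26.3 and 21.3 CPM in Chat-neg replicates 1 to 4. Chat-neg replicate 2 lay close to the Chat-pos libraries. The 22.8 CPM of Chat-neg replicate 1 was only 2 reads, with a 95% Poisson interval of 2.76 to 82.4 CPM that reached into the Chat-pos levels. The 7.65 CPM of Chat-neg replicate 2 rested on 6 reads, with an interval of 2.81 to 16.7 CPM, which overlapped that of Chat-pos replicate 4 (14 reads, 3.01 to 9.24 CPM). Such intervals cover counting error only, since the libraries carry no molecular identifiers. The fitted log2 difference was -1.98 ± 0.52 (SE, edgeR).

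*Fgfbp1*, the FGF carrier, had 1.14, 2.93, 8.22 and 3.15 CPM in Chat-pos replicates 1 to 4, against 11.4, 17.9, 13.6 and 49.1 CPM in Chat-neg replicates 1 to 4. Chat-neg replicate 4 stood alone at the top, and the other Chat-neg libraries lay nearer to Chat-pos replicate 3 than to it. The 11.4 CPM of Chat-neg replicate 1 was a single read, with an interval of 0.289 to 63.6 CPM. The log2 difference was -2.53 ± 0.54 (SE, edgeR). The ratio of the mean in Chat-neg to the mean in Chat-pos was 5.96 over all libraries, 3.70 without Chat-neg replicate 4 and 9.56 without Chat-pos replicate 3.

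*Rbp7*, the retinol carrier, had 0.569, 1.26, 4.57 and 13.4 CPM in Chat-pos replicates 1 to 4, against 45.6, 38.3, 35.7 and 57.3 CPM in Chat-neg replicates 1 to 4. The Chat-neg libraries agreed closely, within 1.61-fold, whereas the Chat-pos libraries spread over 23.5-fold, from 1 read in replicate 1 to 34 reads in replicate 4. The gates did not overlap in level. The 45.6 CPM of Chat-neg replicate 1 rested on 4 reads, and its Poisson interval of 12.4 to 117 CPM overlapped that of Chat-pos replicate 4 (9.26 to 18.7 CPM). The intervals of the other Chat-neg libraries began at 25.7 CPM or above. The log2 difference of -2.96 ± 0.63 (SE, edgeR) was -4.16 without Chat-pos replicate 4. The ratio of the Chat-neg to the Chat-pos mean was 8.95 with that library and 20.8 without it. Per kb of exon, *Rbp7* averaged 6.88 CPM in Chat-pos cells, above 54.1% of the tested genes, and 61.6 CPM in Chat-neg cells, above 91.3%.

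**Figure D1:**
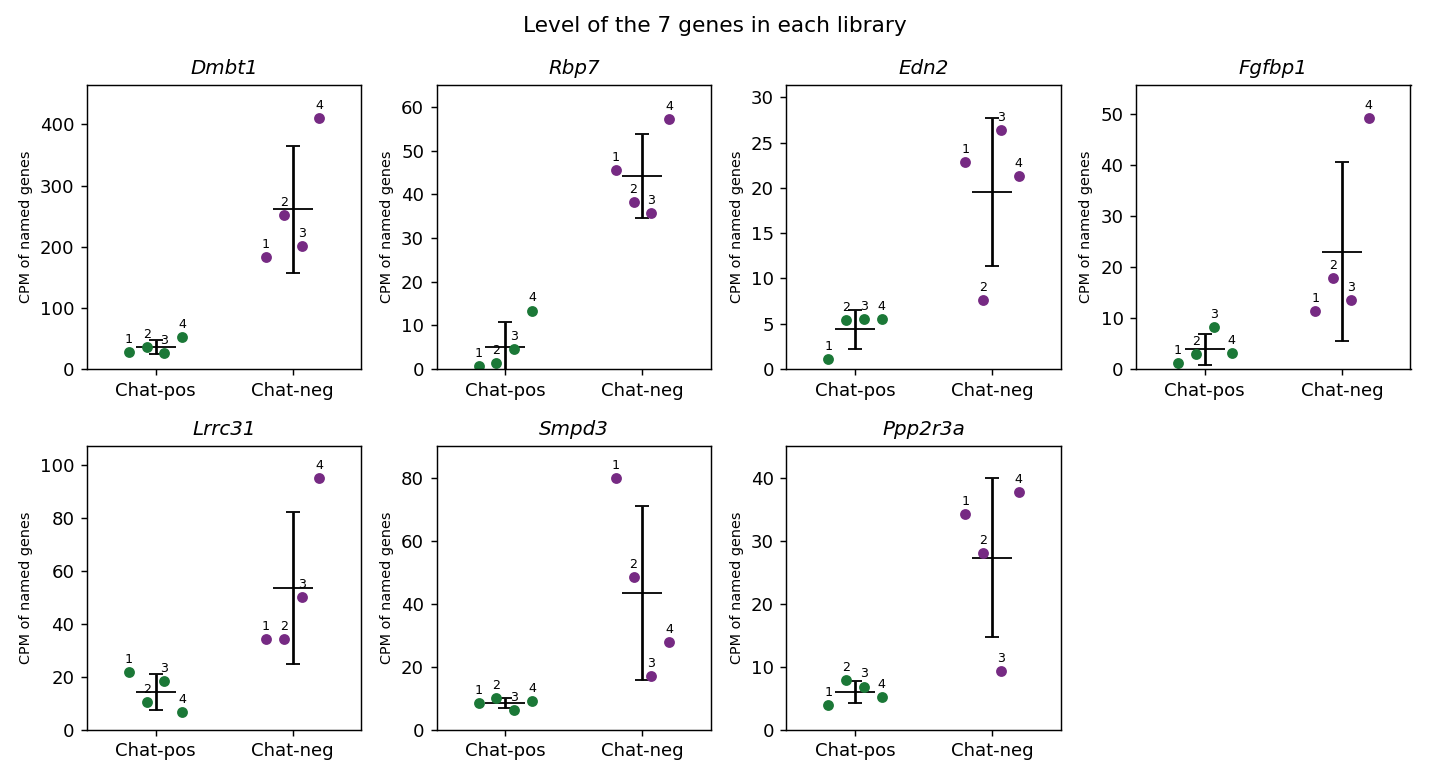
CPM of each of the 7 genes in every library (y axis, from 0), with Chat-pos libraries in green at left and Chat-neg libraries in purple at right; digits are replicate numbers, and bars are the mean and SD of 4 libraries, cut at 0. No gene overlaps between the gates, and Chat-neg replicate 4 is the highest library for 5 of the 7 genes.

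*Smpd3*, the sphingomyelinase, had 8.54, 10.1, 6.39 and 9.05 CPM in Chat-pos replicates 1 to 4, against 79.9, 48.5, 17.0 and 27.8 CPM in Chat-neg replicates 1 to 4. The Chat-pos libraries were the tightest of any of the genes, within 1.57-fold, while Chat-neg spread over 4.70-fold. The log2 difference was -1.95 ± 0.42 (SE, edgeR). *Smpd3* shares 247 exon bases with *Prmt7*, an arginine methyltransferase gene on the opposite strand, whose own log2 difference of -0.74 did not pass (edgeR adjusted p = 0.443). Reads from shared bases of opposite strands cannot be told apart in these libraries.

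*Ppp2r3a*, the phosphatase subunit, had 3.98, 7.96, 6.85 and 5.11 CPM in Chat-pos replicates 1 to 4, against 34.2, 28.1, 9.35 and 37.7 CPM in Chat-neg replicates 1 to 4. Chat-neg replicate 3 (11 reads) lay just above Chat-pos replicate 2 (19 reads), and their Poisson intervals overlapped (4.79 to 12.4 CPM in Chat-pos replicate 2, 4.67 to 16.7 CPM in Chat-neg replicate 3). The log2 difference was -1.95 ± 0.47 (SE, edgeR). With 12455 bases of annotated exon it was the lowest of the 7 genes per kb, at 0.480 CPM per kb in Chat-pos and 2.19 CPM per kb in Chat-neg.

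*Lrrc31* had 21.6, 10.5, 18.3 and 6.69 CPM in Chat-pos replicates 1 to 4, against 34.2, 34.4, 50.1 and 94.96 CPM in Chat-neg replicates 1 to 4. The Chat-pos libraries spread over 3.23-fold and Chat-neg replicate 4 stood highest. The lowest Chat-neg value, in replicate 1, rested on 3 reads with an interval of 7.06 to 100.035 CPM, which took in the whole interval of Chat-pos replicate 1 (15.3 to 29.7 CPM). The log2 difference was -1.91 ± 0.37 (SE, edgeR). An antisense gene, *Gm15462*, shares 648 exon bases with it and drew 31 reads in all libraries, against 267 on *Lrrc31*.

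All 7 genes had an edgeR adjusted p under 0.05, beside 2.87% of the 8919 tested genes called lower and 3.62% called higher. The gates did not overlap for any of the 7, beside 7.02% of tested genes that were lower without overlap and 6.37% that were higher without overlap. Both facts follow from the choice of the genes. By size of fall they held places 4, 5, 7, 10, 13, 14 and 15 among 197 genes called lower that averaged 10 CPM or more and did not overlap. Among all 8919 tested genes the places were 12, 15, 22, 35, 40, 41 and 45. For 6 of the 7 genes, all but *Dmbt1*, the Poisson interval of at least 1 Chat-neg library overlapped that of a Chat-pos library.

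The calls of *Dmbt1* and *Lrrc31* were kept in all 8 fits that left out 1 library, and the other 5 genes each lost theirs without at least 1 library. These adjusted p-values (edgeR) show where a call hung on a library and are no test of the genes. *Fgfbp1* lost its call without Chat-neg replicate 4 (0.108). For *Smpd3* the call hung on Chat-neg replicate 2 (0.0656). *Edn2* lost it without Chat-neg replicate 3 (0.177) or 4 (0.0640), and *Ppp2r3a* without Chat-neg replicate 2 (0.0655) or 4 (0.0919). *Rbp7* lost it without Chat-pos replicate 3 (0.0784), Chat-neg replicate 1 (0.0521) or Chat-neg replicate 2 (0.0510), where its log2 difference was -2.86, -2.94 and -3.01. Every gene stayed lower in Chat-pos in each of the 8 fits, with log2 differences between -4.16 and -1.46.

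**Figure D2:**
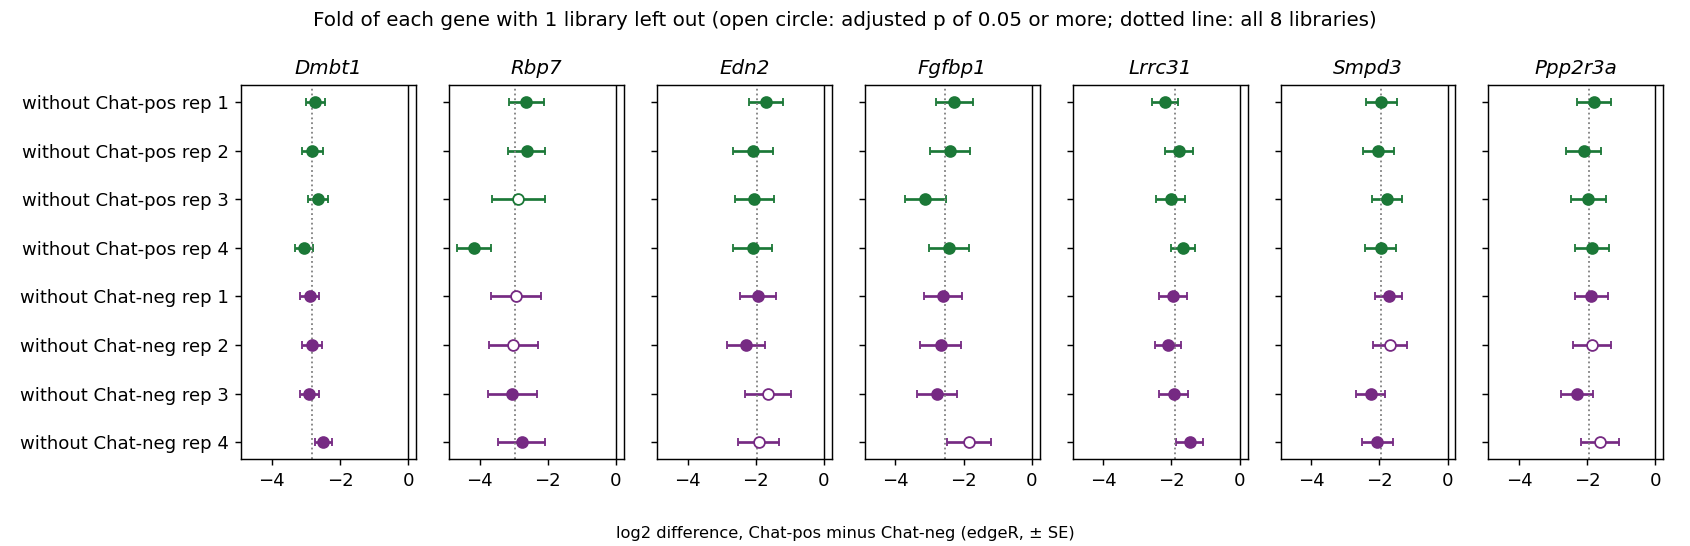
Log2 difference of each gene, Chat-pos minus Chat-neg (x axis, ± SE, edgeR), in 8 fits that each leave out the library named at left; filled circles have an adjusted p under 0.05, and the dotted line is the fit with all libraries. *Dmbt1* and *Lrrc31* are filled throughout, and *Rbp7* moves to -4.16 without Chat-pos replicate 4.

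The genes did not share 1 order of libraries within a gate. Among Chat-neg libraries, replicate 4 was highest for *Dmbt1*, *Rbp7*, *Fgfbp1*, *Lrrc31* and *Ppp2r3a*, replicate 3 for *Edn2* and replicate 1 for *Smpd3*. Among Chat-pos libraries, replicate 4 was highest for *Dmbt1*, *Rbp7* and *Edn2* yet lowest for *Lrrc31*. *Dmbt1* made up 34.7% to 54.8% of the summed CPM of the 7 genes in Chat-pos and 44.4% to 59.1% in Chat-neg. Without it the sum was 37.0 to 49.8 CPM in Chat-pos cells and 152 to 288 CPM in Chat-neg cells.

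Likeness of pattern was measured as the root mean square difference of log2 CPM, centred on each gene's mean, over the 8 libraries, among 7917 tested genes averaging 10 CPM or more. For *Dmbt1* the nearest were *Hspe1*, a mitochondrial co-chaperonin (0.56), *Pycard*, the inflammasome adaptor ASC (0.57), and *Rps15a*, a ribosomal protein (0.62). *Dmbt1* was itself the nearest to *Rbp7* (0.74), followed by *Pycard* (0.81) and *1600014C10Rik* (0.86). For *Edn2* the nearest were *Coq7*, an enzyme of ubiquinone synthesis (0.36), *Rab8b*, a small GTPase (0.37), and *Mrpl23*, a mitochondrial ribosomal protein (0.42). For *Fgfbp1* they were *Prdx4*, a peroxiredoxin of the secretory pathway (0.34), *Cdca3* (0.51) and *Hddc2* (0.52), and for *Lrrc31* they were *Snhg8* (0.38), *Gm26825* (0.46) and *Tmem131l* (0.46). *Smpd3* was nearest to *Nfia*, a transcription factor (0.28), *Gm15564* (0.33) and *Gm23935* (0.34), and *Ppp2r3a* to *Wdr77* (0.33), *Cluh* (0.40) and *Cd44* (0.40). Of these 20 genes, 15 were called lower in Chat-pos with edgeR, beside 2.87% of all tested genes. *Dmbt1*, itself chosen for being low, is among the 15, and the group difference is part of the measure.

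Relatives of the 7 genes were called about as often as tested genes in general. Lists of their relatives held 139 genes, of which 73 were tested, and 4 rose and 2 fell in Chat-pos, or 8.22% called, beside 6.49% of all tested genes called in either direction (edgeR). In the endothelin system, 0 of 3 tested genes passed with edgeR, 1 had an unadjusted p under 0.05, and DESeq2 and limma-voom called 0. *Edn1*, the sister peptide, averaged 10.6 ± 11.9 CPM in Chat-pos cells and 19.3 ± 9.78 CPM in Chat-neg cells (SD, n = 4 each). *Ece1*, the enzyme that cleaves endothelin precursors, had a log2 difference of -1.22 (edgeR adjusted p = 0.270). The receptor genes *Ednra* and *Ednrb* drew 3 reads and 1 read over all 8 libraries, too few to test. The list's median log2 difference was -0.83, against -0.02 over all tested genes. A member was called lower without Chat-pos replicate 2 or Chat-neg replicate 4, with 1 call in each fit.

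Among genes of retinoid handling, 1 of 11 tested rose and 1 fell. *Stra6l*, a retinol transporter of the membrane, rose to 181 ± 18.4 CPM in Chat-pos cells, against 117 ± 17.1 CPM in Chat-neg cells (log2 difference 0.70 ± 0.20, edgeR adjusted p = 0.0296). *Aldh1a1*, which makes retinoic acid from retinal, fell to 23.4 ± 9.13 CPM in Chat-pos cells, against 47.7 ± 25.7 CPM in Chat-neg cells (-1.10 ± 0.32, edgeR adjusted p = 0.0390). The gates overlapped for *Aldh1a1*. *Stra6l* kept its call in 2 and *Aldh1a1* in 3 of the 8 fits that left out a library. *Aldh1a1* lost it without Chat-pos replicate 1, 2 or 3 or Chat-neg replicate 2 or 3, and *Stra6l* without any of replicates 2, 3 and 4 of either gate. *Rbp2*, the abundant retinol-binding protein of enterocytes, varied widely, at 402 ± 211 CPM in Chat-pos cells and 262 ± 154 CPM in Chat-neg cells (edgeR adjusted p = 0.643). The list's median log2 difference was -0.10.

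The sphingolipid genes that passed were higher in Chat-pos. Of 28 tested genes of sphingomyelin and ceramide turnover, 2 rose and none of the other 26 passed with edgeR, with a median log2 difference of 0.04. Of the 28, 7 had an unadjusted p under 0.05, DESeq2 called 3 and limma-voom 3. *Smpdl3a*, the most abundant of the list, averaged 551 ± 48.2 CPM in Chat-pos cells and 356 ± 112 CPM in Chat-neg cells (edgeR adjusted p = 0.0517). *Asah1*, the acid ceramidase of lysosomes, rose to 387 ± 65.0 CPM in Chat-pos cells, against 172 ± 40.0 CPM in Chat-neg cells (1.20 ± 0.21, edgeR adjusted p = 0.000774). *Degs2*, a sphingolipid desaturase, rose to 420 ± 71.9 CPM in Chat-pos cells, against 241 ± 50.8 CPM in Chat-neg cells (0.85 ± 0.21, edgeR adjusted p = 0.0118). Without Chat-neg replicate 2 its adjusted p was 0.0547 (edgeR). The other sphingomyelinases did not pass: *Smpd1* averaged 11.9 ± 3.10 CPM in Chat-pos cells and 11.8 ± 4.14 CPM in Chat-neg cells, and *Smpd2* 42.5 ± 5.92 CPM in Chat-pos cells and 26.6 ± 18.3 CPM in Chat-neg cells (edgeR adjusted p = 0.968 and 0.386).

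Of the PP2A subunits and regulators, 0 of 23 tested genes passed with edgeR, 4 had an unadjusted p under 0.05, DESeq2 called 0 and limma-voom 1. The median log2 difference was -0.12. *Ppp2r3c* and *Ppp2r3d*, which belong to the same class of regulatory subunit as *Ppp2r3a*, averaged 26.9 ± 12.4 and 18.4 ± 3.58 CPM in Chat-pos cells, against 26.9 ± 12.9 and 19.2 ± 18.1 CPM in Chat-neg cells. In the FGF list, 0 of 3 tested genes passed with edgeR, 1 had an unadjusted p under 0.05, DESeq2 called 1 and limma-voom 0. *Fgfbp3*, the relative of *Fgfbp1*, drew 7 reads in all libraries. The list's median log2 difference was 0.15. Of the FGF receptors *Fgfr2* alone had enough counts to be tested, and its log2 difference was 0.15 (edgeR adjusted p = 0.843).

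In the list of SRCR proteins and mucosal defence partners, 1 of 5 tested genes fell and 1 rose. *Pigr*, the receptor that carries IgA across the epithelium, fell to 258 ± 8.36 CPM in Chat-pos cells, against 714 ± 191 CPM in Chat-neg cells (-1.39 ± 0.21, edgeR adjusted p = 0.000149). *Lgals3*, the lectin galectin 3, rose to 1171 ± 86.6 CPM in Chat-pos cells, against 577 ± 107 CPM in Chat-neg cells (1.10 ± 0.21, edgeR adjusted p = 0.00114). Both kept their calls in all 8 fits that left out a library. *Lgals3bp*, the only tested gene of the list with an SRCR domain, averaged 881 ± 116 CPM in Chat-pos cells and 577 ± 158 CPM in Chat-neg cells. It was higher without overlap of the gates, beside 6.37% of all tested genes, but did not pass (0.68 ± 0.22, edgeR adjusted p = 0.0579). *Reg3b* and *Reg3g*, bactericidal lectins of the epithelium, had log2 differences of -1.15 and -0.81 and did not pass (edgeR adjusted p = 0.691 and 0.739). The list's median log2 difference was -0.81.

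**Figure D3:**
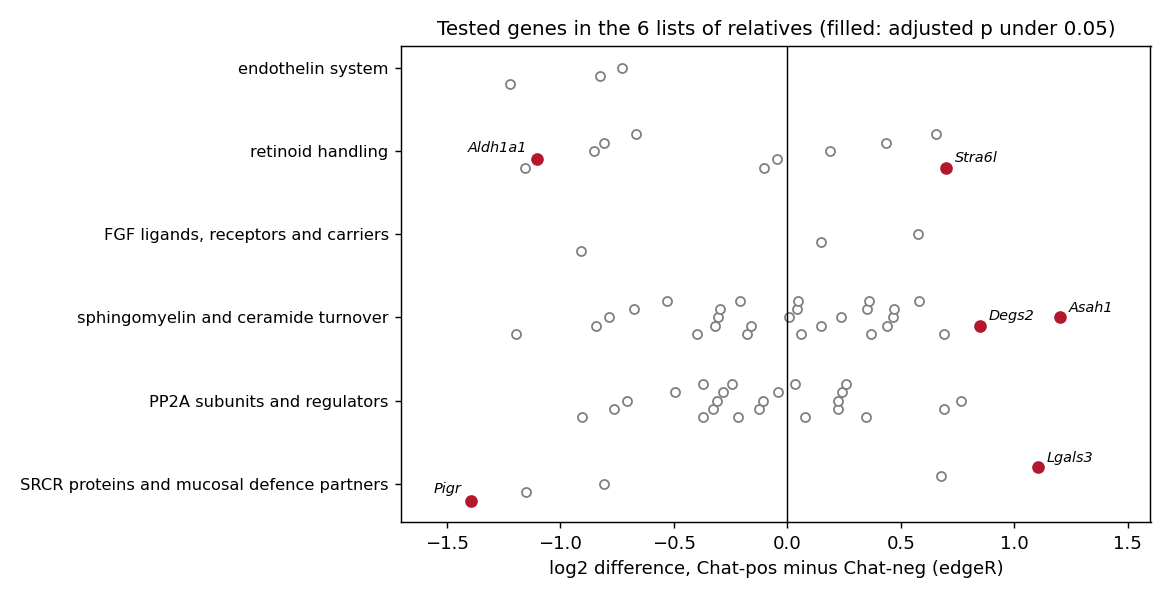
Log2 difference, Chat-pos minus Chat-neg (x axis, edgeR), of the 73 tested genes in the 6 lists of relatives (y axis; points are spread vertically for legibility); filled red points have an adjusted p under 0.05. The 6 called genes are named, with *Pigr* and *Aldh1a1* below 0 and *Stra6l*, *Degs2*, *Lgals3* and *Asah1* above it.

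Most neighbours of the 7 genes on their chromosomes had too few counts to be tested. Of the 14 nearest protein-coding genes on either side, 5 were tested and 1 was called lower, beside 2.87% of all tested genes. That gene, *Ube4b*, a ubiquitin ligase 22938 bases from *Rbp7*, had a log2 difference of -1.22 ± 0.36 (edgeR adjusted p = 0.0387), and kept its call in 1 of the 8 fits that left out a library, the one without Chat-neg replicate 1. *Msl2*, whose annotated 3′ end lies 284 bases from the 3′ end of *Ppp2r3a*, stood at -0.48 ± 0.47 (edgeR adjusted p = 0.623). *Prom1*, next to *Fgfbp1*, averaged 197 ± 14.7 CPM in Chat-pos cells and 195 ± 43.0 CPM in Chat-neg cells, and *Hivep3*, next to *Edn2*, had a log2 difference of 0.64 (edgeR adjusted p = 0.888 and 0.104).

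Markers of other cell types were measured beside the 7 genes, and their part in the lower levels was not tested. Goblet markers summed to 432 to 1750 CPM in Chat-pos cells and 685 to 5499 CPM in Chat-neg cells, and of 9 tested 1 fell (*Clca1*) and 0 rose with edgeR, 4 had an unadjusted p under 0.05, DESeq2 called 2 and limma-voom 1. The median log2 difference of the 9 was -1.81, and 6 of them were below 0. *Guca2a*, *Spink4* and *Galnt12* were above 0, at 0.84, 0.37 and 0.16. The most abundant, *Zg16* and *Tff3*, had log2 differences of -2.58 and -2.01 with gates that overlapped, and did not pass (edgeR adjusted p = 0.227 and 0.214). *Muc2* and *Fcgbp*, which encode goblet cell mucus proteins, were also lower without overlap of the gates, beside 7.02% of all tested genes. They averaged 25.2 ± 15.7 and 18.3 ± 12.9 CPM in Chat-pos cells, against 84.8 ± 64.5 and 130 ± 114 CPM in Chat-neg cells. Neither passed (edgeR adjusted p = 0.248 and 0.0915). The goblet sum was highest in Chat-neg replicate 3, which was the top library for *Edn2* alone. Crypt stem and proliferation markers summed to 248 to 1300 CPM in Chat-pos cells and 234 to 1677 CPM in Chat-neg cells, with 0 of 14 tested called by edgeR, DESeq2 or limma-voom and 6 at an unadjusted p under 0.05. Of those 6, the proliferation genes *Mki67*, *Top2a*, *Mcm5*, *Mcm6* and *Tk1* were lower in Chat-pos, with log2 differences of -1.27, -1.03, -1.47, -1.48 and -1.47. *Ascl2* was higher (1.07). The median log2 difference of the 14 was -0.83, and 10 of them were below 0. The sum of 1677 CPM belonged to Chat-neg replicate 4, the top library for 5 of the 7 genes, and the 3 other Chat-neg libraries had 234 to 537 CPM. Chat-pos replicates 2 and 3 had 791 and 1300 CPM of these markers and 74.1 and 76.3 CPM of the 7 genes summed. *Olfm4* alone made 394 and 883 CPM of those 2 marker sums, and 737 CPM of the sum in Chat-neg replicate 4.

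Enteroendocrine markers summed to 1178 to 1769 CPM in Chat-pos cells and 593 to 1696 CPM in Chat-neg cells. *Sct*, secretin, was the 1 member tested and rose, while *Chgb*, chromogranin B, reached 352 CPM in Chat-neg replicate 4 and at most 8.93 CPM in the other libraries. Intraepithelial lymphocyte markers summed to 11.4 to 424 CPM in Chat-pos cells and 226 to 482 CPM in Chat-neg cells, with 0 of 6 tested called by edgeR or DESeq2, 1 at an unadjusted p under 0.05 and 1 called by limma-voom. All 6 had log2 differences below 0, with a median of -1.89. In Chat-pos only replicate 2 reached 424 CPM, and the other Chat-pos libraries had 11.4 to 15.1 CPM, below every Chat-neg library. Paneth markers summed to 463 to 57618 CPM in Chat-pos cells and 784 to 3567 CPM in Chat-neg cells, with Chat-pos replicates 2 and 3 at 57618 and 32111 CPM. None of 10 tested Paneth markers passed with edgeR, 5 had an unadjusted p under 0.05, DESeq2 called 5 and limma-voom 0. Enterocyte markers summed to 33042 to 52130 CPM in Chat-pos cells and 21713 to 47178 CPM in Chat-neg cells, with 0 of 12 called by edgeR, 2 at an unadjusted p under 0.05, 1 called by DESeq2 and 0 by limma-voom. No marker in these lists was at 0 in all libraries. With the Paneth-rich Chat-pos replicates 2 and 3 left out, the log2 differences of the 7 genes ran from -3.16 (*Fgfbp1*) to -1.76 (*Smpd3*), and *Rbp7* and *Edn2* lost their calls (edgeR adjusted p = 0.0669 and 0.0616).

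**Figure D4:**
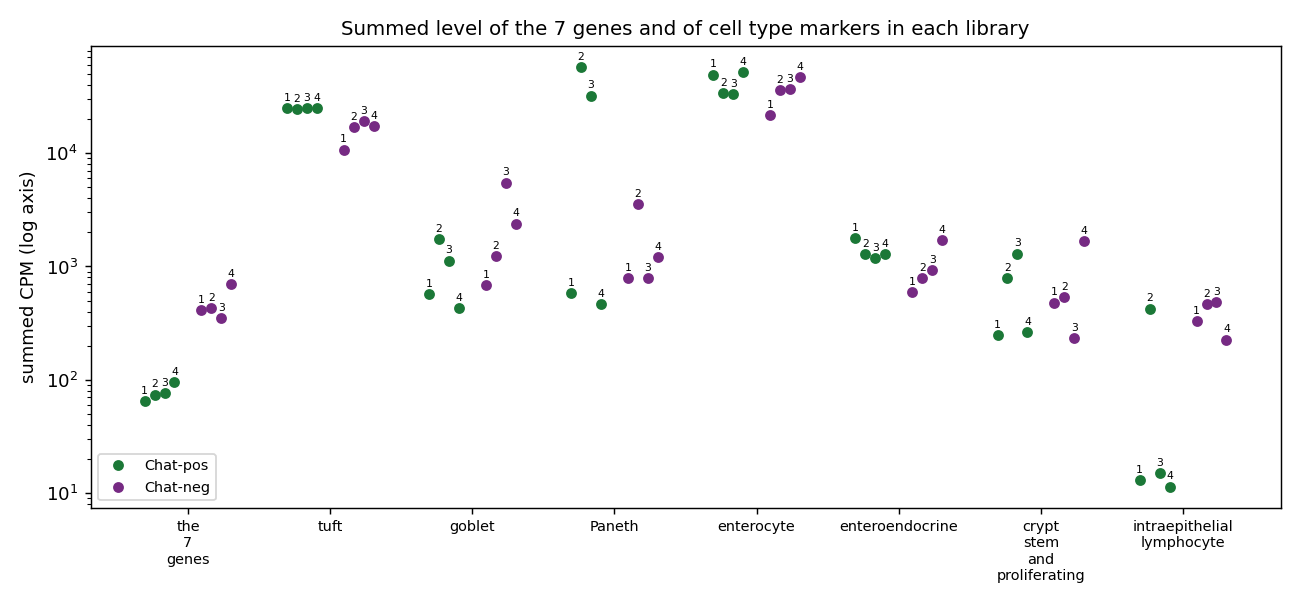
Summed CPM (log axis) of the 7 genes and of 7 lists of cell type markers (x axis) in each library, Chat-pos in green at left of each pair and Chat-neg in purple at right, with replicate numbers above the points. The sum of the 7 genes is 64.9 to 94.8 CPM in Chat-pos cells and 353 to 699 CPM in Chat-neg cells, and no sum for another cell type separates the gates in that direction. The lymphocyte sum overlaps through Chat-pos replicate 2 alone, and the single goblet markers *Clca1*, *Muc2* and *Fcgbp* do separate the gates.

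Reads on 1736 olfactory and vomeronasal receptor genes, pseudogenes included, were taken as a measure of background, on the assumption that sorted tuft cells do not express them. Per kb of exon they stood at 0.0284 to 0.0539 CPM in Chat-pos cells and 0.0733 to 0.808 CPM in Chat-neg cells, with the highest value in Chat-neg replicate 1. Scaled to its exon length, this background came to 7.23% of the *Ppp2r3a* reads pooled over Chat-pos and 7.22% over Chat-neg, the highest share of any of the 7 genes. Pooling gives little weight to the shallow Chat-neg replicate 1, where background came to 0.882 of 3 *Ppp2r3a* reads, or 10.1 of 34.2 CPM. For the other 6 genes the pooled share was 0.469% to 2.16% in Chat-pos and 0.221% to 2.18% in Chat-neg. The Chat-neg libraries fell in the same order by *Smpd3* level as by background (replicates 1, 2, 4, 3). In Chat-neg replicate 1 the background came to 0.370 of its 7 reads, and the part of background in that order was not tested. With background subtracted from all genes and the result rounded to whole reads, the 7 log2 differences ran from -2.92 (*Rbp7*) to -1.86 (*Lrrc31*). All 7 kept their calls. The rounding left the counts of *Rbp7*, *Edn2* and *Fgfbp1* unchanged, since their background was 0.261 reads or less in each library. The kept calls of those genes are therefore no check on background.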

How the data were processed

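RNA of sorted tuft cells was lysed in SMARTer v4 reagents, amplified as cDNA and made into Nextera XT libraries for single-read sequencing, per the labels' protocols. Such libraries mark no strand and carry no molecular identifiers. The authors deposited 1 table of raw counts, a row per symbol. Per the submitters' processing notes, reads were placed on GRCm38. Which aligner, counter and annotation served is not given in the sources used here. The 36 rows without a name held 58.6% to 64.6% of counts in Chat-pos and 67.8% to 88.4% in Chat-neg and were left out. Rows sharing a symbol were summed, which left 53655 symbols. Positions and exon lengths came from GENCODE M21.

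CPM values are per 1000000 counts in named genes. Folds come from edgeR 4.0.16 (TMM scaling, filterByExpr, robust quasi-likelihood fit, group as the only term) with Benjamini-Hochberg adjustment over 8919 genes and a threshold of 0.05, and were checked on simulated counts. Standard errors are the log2 difference over the root of F. Since TMM rescales the libraries, folds differ somewhat from ratios of CPM. The alternatives were RLE and total count scaling, other filters on low counts, DESeq2 1.42.0, limma-voom (limma 3.58.1), the replicate number as a block, each library left out and background subtracted. Leaving out both Paneth-rich libraries was added after seeing the data. P-values measure the spread between libraries, which may in part be technical, since the labels do not tie libraries to animals. All pairs of libraries within a gate differed by more than counting noise (chi-square per degree of freedom 4.45 to 26.3). The genes and the lists of relatives were chosen with earlier results of these data known. The text names the 7 genes, *Chat* and *Il25*, up to 4 called genes per list of relatives, close paralogs, nearest neighbours, the 3 most alike genes, the largest falls and leading markers, and other genes were picked after their values were seen.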

Additional observations from a re-analysis of the deposited data

Results flagged for a closer look

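In groups of 4 libraries, a library stood apart from the other 3 in 6 of 34 groups of values looked at. The rule compared the gap to the next library with the range of the 4. For independent, normally distributed values, chance alone sets a library apart in about 1 in 20 such groups. CPM values, some from few reads, need not follow that distribution, so the rate is only a guide. *Edn2* was lowest in Chat-pos replicate 1, at 1.14 CPM (2 reads) against 5.45 CPM in the next library. *Fgfbp1* was highest in Chat-neg replicate 4, at 49.1 CPM (30 reads) against 17.9 CPM in the next. Among marker sums, the Paneth list reached 3567 CPM in Chat-neg replicate 2, against 1217 CPM in the next Chat-neg library. The intraepithelial lymphocyte list reached 424 CPM in Chat-pos replicate 2, against 15.1 CPM in the next Chat-pos library. Background reads on receptor genes were highest in Chat-pos replicate 1 (0.0539 CPM per kb) within Chat-pos and in Chat-neg replicate 1 (0.808 CPM per kb) within Chat-neg. That Chat-neg library was also the shallowest, with 87642 counts.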

How the results depend on the processing

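No called gene named here changed sign under any alternative run. For the named genes outside the 7, alternatives other than single libraries left out kept the side of the threshold in 452 of 497 cases, lost a call in 34 and gained one in 11. Over all genes, 323 were higher and 256 lower in Chat-pos; the lower count was 143 with no filter on low counts, 402 with limma-voom and 86 without the Paneth-rich libraries. Total count scaling gave 225 higher and 380 lower, and background subtraction 468 higher and 211 lower. Leaving out 1 library gave 138 to 360 higher and 110 to 309 lower genes, with 138 higher and 110 lower without Chat-neg replicate 2, and 141, 163 and 124 lower without Chat-pos replicate 3, Chat-neg replicate 3 and Chat-neg replicate 4. Of the 7 genes, 4 to 7 were called with 1 library left out (4 without Chat-neg replicate 2 or 4), and 4 of 4 with DESeq2, which gave the other 3 no adjusted p. Replicate numbers were not taken to pair the libraries: deviations of same-numbered libraries correlated at 0.077, 0.094, -0.004 and -0.019, and numbers 1 and 2, but not 3 and 4, matched their own number best. With the replicate block 6 of the 7 genes were called, *Edn2* was not (-1.80, adjusted p = 0.0675, edgeR), and 290 genes were higher and 230 lower; the retinoid list had 0 lower, against 1.

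The retinoid list had 0 higher with total count scaling, 0 higher and 0 lower with no filter or without the Paneth-rich libraries, 0 lower with DESeq2 and 2 lower with limma-voom, and 0 to 1 in each direction with 1 library left out. The FGF list had 1 higher with DESeq2 or background subtracted and 1 lower with no filter. The PP2A list had 2 lower with total count scaling, 1 with limma-voom and 0 to 1 with 1 library left out. The SRCR list had 2 higher with RLE scaling, DESeq2, limma-voom or background subtracted, and 1 to 2 with 1 library left out. With 1 library left out the endothelin list had 0 to 1 lower and the sphingolipid list 1 to 3 higher. The causes were not tested. Total count scaling moved the median of all genes to -0.14 on the log2 scale, against -0.02, and leaving out the filter, which admits sparse genes, to -0.34. Depth limits the 7 genes most in Chat-neg replicate 1, where 6 of them rested on 1 to 7 reads.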

Other observations

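Other genes stood among the 15 largest falls that hold the 7 genes, ranked over called genes averaging 10 CPM or more whose gates did not overlap. *Clca1*, a goblet cell product, averaged 7.55 ± 3.86 CPM in Chat-pos cells and 60.3 ± 44.2 CPM in Chat-neg cells (SD, n = 4 each). *Cdca3*, a cell cycle gene, averaged 8.88 ± 4.37 CPM in Chat-pos cells and 40.4 ± 24.2 CPM in Chat-neg cells, and its call (edgeR adjusted p = 0.0092) was lost without Chat-neg replicate 4 (0.135). *Ttn*, which encodes the muscle protein titin, averaged 3.16 ± 1.45 CPM in Chat-pos cells and 37.1 ± 25.7 CPM in Chat-neg cells. Its Chat-neg levels, 68.5, 45.9, 9.35 and 24.6 CPM in replicates 1 to 4, fell in the same order as the background reads. The part of background in the level of *Ttn* was not tested. *Vapb*, a protein of endoplasmic reticulum contacts, averaged 2.20 ± 0.85 CPM in Chat-pos cells and 18.3 ± 18.3 CPM in Chat-neg cells, and its call was kept in 0 of the 8 fits that left out a library. *Snord13*, a small nucleolar RNA, averaged 63.5 ± 40.8 CPM in Chat-pos cells and 298 ± 85.5 CPM in Chat-neg cells and kept its call in 3 of the 8. The predicted genes *Gm11168*, *Gm10718* and *Gm23935* made up the rest, with log2 differences of -3.51, -2.67 and -1.97 (edgeR). These genes were ranked on the same contrast, so their folds are descriptions.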
